A study of Mus musculus with 21 samples.

Results

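The replication-dependent histone genes encode the H1 linker histones and the H2A, H2B, H3 and H4 core histones that package new DNA. They were taken as the rows of the count table whose symbol begins with Hist1h, Hist2h, Hist3h or Hist4h, which gave 68 of 24047 genes. Of the 68, 6 encode H1, 18 H2A, 19 H2B, 12 H3 and 13 H4. In the GENCODE M21 annotation of mouse build GRCm38, 54 lie in the Hist1 cluster on chromosome 13, 10 in Hist2 on chromosome 3, 3 in Hist3 on chromosome 11 and 1, Hist4h4, on chromosome 6. GENCODE marks 67 as protein-coding and Hist3h2bb-ps as a processed pseudogene.

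In dividing animal cells these genes are transcribed in S phase and their messenger RNAs end in a conserved stem-loop in place of a poly(A) tail. The stem-loop is bound by SLBP, the stem-loop binding protein, and the RNAs are degraded when DNA replication ends. Some of the genes also give polyadenylated transcripts that run on to a downstream signal, mainly in differentiating or non-dividing cells.

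RNA was sequenced from SMB21, a mouse cell line from sonic hedgehog medulloblastoma, a cerebellar tumour. The cells received quisinostat (JNJ, an inhibitor of histone deacetylases, HDACs) or its DMSO control for 2 h or 24 h, at a dose not given in the sources used here. Other SMB21 cells received a virus that codes for a short hairpin RNA (shRNA), directed at luciferase in the control group (shLuc) and otherwise at Hdac1 (shHdac1) or Hdac2 (shHdac2), and all 3 of these groups were selected with puromycin. Each of the 7 groups has 3 libraries of 23094799 to 39341784 counted reads, all of 1 cell line, and nothing in the labels says that the 3 are separate cultures, so p-values measure the spread between libraries, which may be technical.

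The kit selects polyadenylated RNA, so the values below describe histone transcripts that carry a poly(A) tail or a run of A, not the bulk of histone mRNA. The 68 genes held 102260 reads in all, between 0.0102% and 0.0258% of a library. Reads were found in 57 of them, in every library for 40 and in some libraries for 17. The remaining 11 had no count in any library, where 3 counts, the limit that a count of 0 allows, are 0.0763 to 0.130 CPM (counts per 10 to the power of 6).

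Levels were concentrated in a few genes. CPM averaged over the 21 libraries were above 2 in 7 genes, which together held 90.1% of the reads of the 68. Hist2h2be, an H2B gene, alone held 45.3%, and the H2B genes Hist3h2ba and Hist1h2bc held 13.6% and 11.9%. The H2A gene Hist3h2a held 9.00%, the linker histone gene Hist1h1c 5.30%, the H4 gene Hist1h4i 2.81% and the H2B gene Hist1h2be 2.11%. By class, H2B genes held 74.9% of the reads, H2A 10.8%, H1 6.41%, H4 5.81% and H3 2.05%.

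In build GRCm38, Hist2h2be lies at chr3:96221119-96223738 on the plus strand, and Hist3h2ba and Hist3h2a lie at chr11:58948920-58949533 and chr11:58954685-58956830, also on the plus strand. On chromosome 13, Hist1h2bc lies at chr13:23684199-23692908 and Hist1h1c at chr13:23738808-23740367 on the plus strand. Hist1h4i lies at chr13:22040636-22041362, Hist1h2be at chr13:23583670-23621124, Hist1h1e at chr13:23620629-23622558 and Hist1h3c, the gene eighth in reads, at chr13:23744973-23745602, all on the minus strand. The reads were aligned to build mm9, per the submitters' processing notes, and these positions serve to place the genes only.

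Per length, which allows levels of different genes to be set side by side, the order was different. On mean CPM per kb of the longest annotated transcript, Hist3h2ba came first at 34.5, then Hist2h2be at 26.6, Hist1h2bc at 15.8, Hist3h2a at 6.51, Hist1h4i at 5.87 and Hist1h1c at 5.23. The next was the H4 gene Hist1h4b at 2.09, and the H3 gene with most reads, Hist1h3c, was at 1.73. These values depend on the annotated length, which was 614 nucleotides for Hist3h2ba and 2620 for Hist2h2be.

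Testis-specific members were at or near 0. Hist1h2aa and Hist1h2ba, testis variants of H2A and H2B, had no read in any of the 21 libraries, although 82.6% and 66.8% of the 75-base windows of their transcripts occur in no other annotated gene. Hist1h1t, the testis linker histone, had 9 reads in all, spread over 5 libraries with at most 3 in a library. These were 2, 0 and 0 reads in JNJ 2 h, 2, 1 and 0 in DMSO 24 h, 3, 0 and 0 in JNJ 24 h and 0, 1 and 0 in shHdac1, and 0 in each library of the other groups.

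Most of the other genes without counts are near-identical copies of another gene. The 11 genes without counts have a median of 7.35% of 75-base windows that occur in no other annotated gene, and in 3 of them, Hist2h2aa1, Hist2h2aa2 and Hist2h3c1, the share is 0%. Of the 9 that are not testis variants, 8 have at most 12.9% and Hist2h3c2 has 37.4%. The 57 genes with counts have a median of 63.4%, and 2 of them, Hist2h2bb and Hist2h3b, are also at 0%. The sources used here do not give how reads that map to several places were counted, so a count of 0 does not show absence of the RNA, and the values of near-identical copies are uncertain. The annotated spans of Hist1h1e and Hist1h2be overlap by 496 bases on the same strand, and reads there could count for either gene.

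The stem-loop sequence marks how the annotated transcripts end, and is shown because the classes below rest on it. The letters searched were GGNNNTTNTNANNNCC, on the sense strand, where the NNN of both arms had to pair, so that a stem of 6 base pairs closes a loop of 4 bases. Of the 68 genes, 46 (67.6%) hold it in a GENCODE transcript. It lies in 69 of 21877 protein-coding genes in all (0.315%), of which 46 are the histone genes counted here. In capitals are the 2 arms of the stem, and in lower case is the loop.
Most frequent form, 26 genes, among them Hist3h2ba, Hist3h2a, Hist1h1c, Hist1h1e and Hist1h2be: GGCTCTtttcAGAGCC
7 genes, among them Hist1h4d and Hist1h4h: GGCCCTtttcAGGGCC
6 genes, among them Hist1h3c and Hist1h2bk: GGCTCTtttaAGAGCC
2 genes, one of them Hist1h4i: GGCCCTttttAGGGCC
2 genes, one of them Hist1h4b: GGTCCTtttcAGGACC
Hist1h3g: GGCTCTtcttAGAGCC
Hist1h4a: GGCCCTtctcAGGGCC
Hist2h2ac: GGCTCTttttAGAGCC

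In 23 genes every annotated transcript that holds the stem-loop ends within 100 nucleotides of it, as replication-dependent mRNA does. Transcripts without a stem-loop did not enter this rule, and Hist1h2bp, among the 23, has 2 annotated transcripts. These 23 held 4.16% of the members' reads, none had a mean CPM above 2, and 2 have a poly(A) signal (AATAAA or ATTAAA) in the last 50 nucleotides. Another 23 have a transcript that runs further, held 36.3% of the reads, include 5 of the 7 genes above 2 CPM, and 12 of them have a poly(A) signal there. The last 22 have no stem-loop in an annotated transcript, held 59.5% of the reads and include Hist2h2be and Hist1h2bc. Nearest to the limit of 100 nucleotides were Hist1h3c, with 74 nucleotides after the stem-loop, and Hist1h4a, with 108. The annotation may stop short of the true 3′ end, so the classes describe the annotation and not the RNA.

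**Figure D1:**
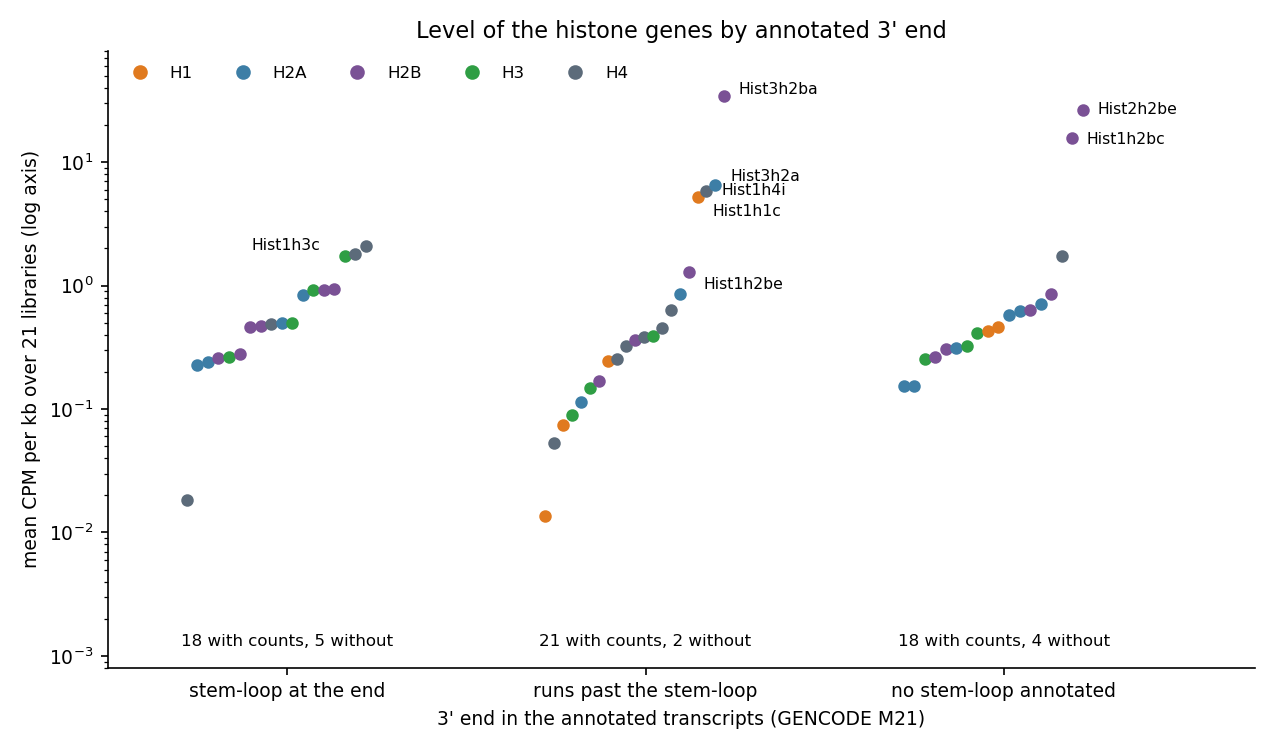
Mean CPM per kb of the longest annotated transcript over the 21 libraries (log axis), 1 point per histone gene with counts, coloured by histone class and placed by where its annotated transcripts end. The 7 genes with a mean CPM above 2 and Hist1h3c are named: none of the 7 lies among the 23 genes whose transcripts end at the stem-loop, and 11 genes without counts are given as numbers at the foot.

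After 24 h with JNJ, 2 linker histone genes rose and no core histone gene was called. Differences were tested with edgeR's quasi-likelihood test in 14467 genes, 40 of them histone genes, and called at a Benjamini-Hochberg adjusted p under 0.05 over all genes tested. Of the 40, 2 were called higher (background 18.1%) and 0 lower (background 15.1%), and both are H1 genes, Hist1h1c and Hist1h1e. At an unadjusted p under 0.05, 2 were higher (background 23%) and 3 lower (background 20.3%). DESeq2 called the same 2 higher (background 18.7%) and 0 lower (background 15.7%). The called shares, 5.00% and 0%, lie below the background shares, and that difference was not tested. The median log2 change of the 40 was 0.04, against 0.01 over all genes tested. In whole cultures, fewer cells of a kind and less RNA per cell cannot be told apart.

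Hist1h1c, which encodes linker histone H1.2, had 5.50, 4.14 and 8.15 CPM in the 3 DMSO 24 h libraries and 17.4, 18.8 and 16.2 CPM in the JNJ 24 h libraries. Every JNJ library lay above every DMSO library. The rise was 2.94-fold (log2 1.56, SE 0.28, adjusted p = 0.00128), and it was called without any 1 of these 6 libraries and under the 7 other settings tried. Hist1h1e, which encodes H1.4, had 7, 13 and 11 reads with DMSO and 32, 46 and 19 with JNJ, or 0.202, 0.336 and 0.310 against 0.829, 1.47 and 0.749 CPM. These groups did not overlap either, at a level of few reads. Hist1h1e rose 3.56-fold (log2 1.83, SE 0.51, adjusted p = 0.0145), but leaving out DMSO 24 h replicate 1 raised the adjusted p to 0.0629 and leaving out JNJ 24 h replicate 2 raised it to 0.0706, which ended the call.

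The other H1 genes were not called. Hist1h1a, Hist1h1b and Hist1h1d, which encode H1.1, H1.5 and H1.3, had log2 differences of 0.67, SE 0.48, 0.79, SE 0.55 and 1.03, SE 0.50, with adjusted p of 0.304, 0.295 and 0.134. The sixth, Hist1h1t, was not tested. Summed over the 6 H1 genes, CPM were 6.68, 5.46 and 9.45 with DMSO and 20.5, 22.2 and 18.0 with JNJ, mostly from Hist1h1c. The log2 change was above 0 in 5 of 5 tested H1 genes, and in 16 of the 35 tested core histone genes.

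The promoters of both called genes are shown because H1 promoters are known for the sequence AAACACA, the H1 box, upstream of a CCAAT sequence. These are the 250 bases before the RefSeq start, 5′ to 3′, with the H1 box, the CCAAT sequence and the sequence TATAAA in capitals, each searched on both strands. The first lies at chr13:23738557-23738806 on the plus strand and the second at chr13:23622559-23622808 on the minus strand, build GRCm38.p6.
Hist1h1c: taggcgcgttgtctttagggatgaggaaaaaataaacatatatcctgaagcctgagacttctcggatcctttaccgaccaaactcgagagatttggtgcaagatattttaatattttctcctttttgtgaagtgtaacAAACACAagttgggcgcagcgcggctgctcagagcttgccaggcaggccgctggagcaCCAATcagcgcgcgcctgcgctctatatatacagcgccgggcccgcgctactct
Hist1h1e: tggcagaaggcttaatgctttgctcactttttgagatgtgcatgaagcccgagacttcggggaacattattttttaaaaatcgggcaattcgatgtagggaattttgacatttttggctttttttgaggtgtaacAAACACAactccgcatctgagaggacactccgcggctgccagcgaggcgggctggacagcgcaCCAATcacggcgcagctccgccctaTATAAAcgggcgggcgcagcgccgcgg
Counted to the first base of each match, AAACACA begins 112 bases before the start in Hist1h1c and 115 in Hist1h1e, and CCAAT begins 54 and 52 bases before it. TATAAA begins 27 bases before the start of Hist1h1e and has no match in the window of Hist1h1c. None of these matches overlap. AAACACA lies in 5 of the 6 H1 promoters, 2 of 17 H2A, 2 of 16 H2B, 0 of 10 H3 and 0 of 12 H4, and in 6.25% of 32851 promoters of the table. CCAAT lies in 50 of the 61 histone promoters matched (82.0%) against 33.8% of all, and TATAAA in 29 (47.5%) against 12.4%. Of the H4 promoters, 3 of 12 have CCAAT, against 6 of 6 for H1, 17 of 17 for H2A and 16 of 16 for H2B. AAACACA is also in the promoters of Hist1h1b and Hist1h1d, which were not called, and of Hist1h1t, which was not tested. A match is a run of letters and not a shown site of binding.

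The genes with most reads were not called at 24 h. Hist2h2be had 78.8, 97.1 and 79.9 CPM with DMSO and 124, 110.1 and 67.5 with JNJ (log2 0.24, SE 0.25, adjusted p = 0.497). JNJ replicate 3 lay below all 3 DMSO libraries and the other JNJ libraries above them. Hist3h2ba had 18.1, 19.0 and 21.6 CPM with DMSO and 22.1, 20.6 and 19.7 with JNJ (log2 0.09, SE 0.23, adjusted p = 0.805), and these ranges overlapped.

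Hist1h2bc had 15.1, 16.9 and 33.7 CPM with DMSO and 21.6, 21.4 and 25.5 with JNJ (log2 0.06, SE 0.37, adjusted p = 0.924). Hist3h2a had 14.6, 12.9 and 17.0 CPM with DMSO and 16.4, 15.0 and 20.5 with JNJ (log2 0.23, SE 0.23, adjusted p = 0.476). In both, the JNJ range overlapped the DMSO range. Hist1h4i had 3.17, 8.85 and 4.68 CPM with DMSO and 3.86, 8.55 and 3.70 with JNJ (log2 -0.05, SE 0.50, adjusted p = 0.950). Hist1h2be had 5.44, 3.88 and 5.90 CPM with DMSO and 4.74, 5.06 and 4.61 with JNJ (log2 -0.08, SE 0.28, adjusted p = 0.862). In both of these genes, too, the groups overlapped, and in Hist1h4i replicate 2 was the highest library of both groups.

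At 24 h most genes whose transcripts end at the stem-loop had lower fitted values with JNJ. Of 13 such genes tested, 10 had a log2 change below 0 and the median was -0.88, against 7 of 17 genes running past it (median 0.09) and 2 of 10 with no stem-loop annotated (median 0.36). None of these lower values was called, and the groups of genes were not compared by a test. Over all genes tested, 50.6% had a log2 change above 0. Genes with few reads in JNJ 24 h could pass the filter on low counts through another group, which favours lower values among them. Hist1h3c, an H3 gene, had 0.864, 1.50 and 1.13 CPM with DMSO and 0.337, 0.768 and 0.197 with JNJ (log2 -1.41, SE 0.65, adjusted p = 0.114), with no overlap. With the replicate number as a block, 5 histone genes were called at 24 h in place of 2 (edgeR, 2 higher against a background of 24.3%, 3 lower against 21.6%). This block was fitted over the 2 h and 24 h libraries together, although the 2 h numbers were not taken as pairs. The 3 called lower were Hist1h3c (adjusted p = 0.0162), the H2A gene Hist1h2ag (0.0423) and the H2B gene Hist1h2bk (0.0314).

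Hist1h2ag had 17, 14 and 21 reads with DMSO and 4, 6 and 3 with JNJ, or 0.489, 0.362 and 0.592 against 0.104, 0.192 and 0.118 CPM (log2 -1.78, SE 0.74, adjusted p = 0.0832 without the block). Hist1h2bk had 8, 28 and 23 reads with DMSO and 7, 4 and 0 with JNJ, or 0.230, 0.725 and 0.649 against 0.181, 0.128 and 0 CPM (log2 -2.26, SE 0.90, adjusted p = 0.0710 without the block). In both genes every JNJ library lay below every DMSO library in CPM, on few reads. Of their 75-base windows, 22.4% for Hist1h2ag and 27.4% for Hist1h2bk occur in no other gene, and their values are uncertain for that reason.

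Of the 40 tested histone genes, 6 had all JNJ 24 h libraries above all DMSO 24 h libraries (background 28.6%). They were Hist1h1b, Hist1h1c, Hist1h1e, the H2A gene Hist1h2ac, the H3 gene Hist1h3d and the H4 gene Hist1h4k, 3 of them H1 genes. Another 4 had all JNJ libraries below (background 26.9%), which were Hist1h3c, Hist1h2ag, Hist1h2bk and the H2A gene Hist1h2ae. Of the 4, Hist1h3c, Hist1h2ag and Hist1h2bk end at the stem-loop and Hist1h2ae has a transcript that runs 151 nucleotides past it.

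**Figure D2:**
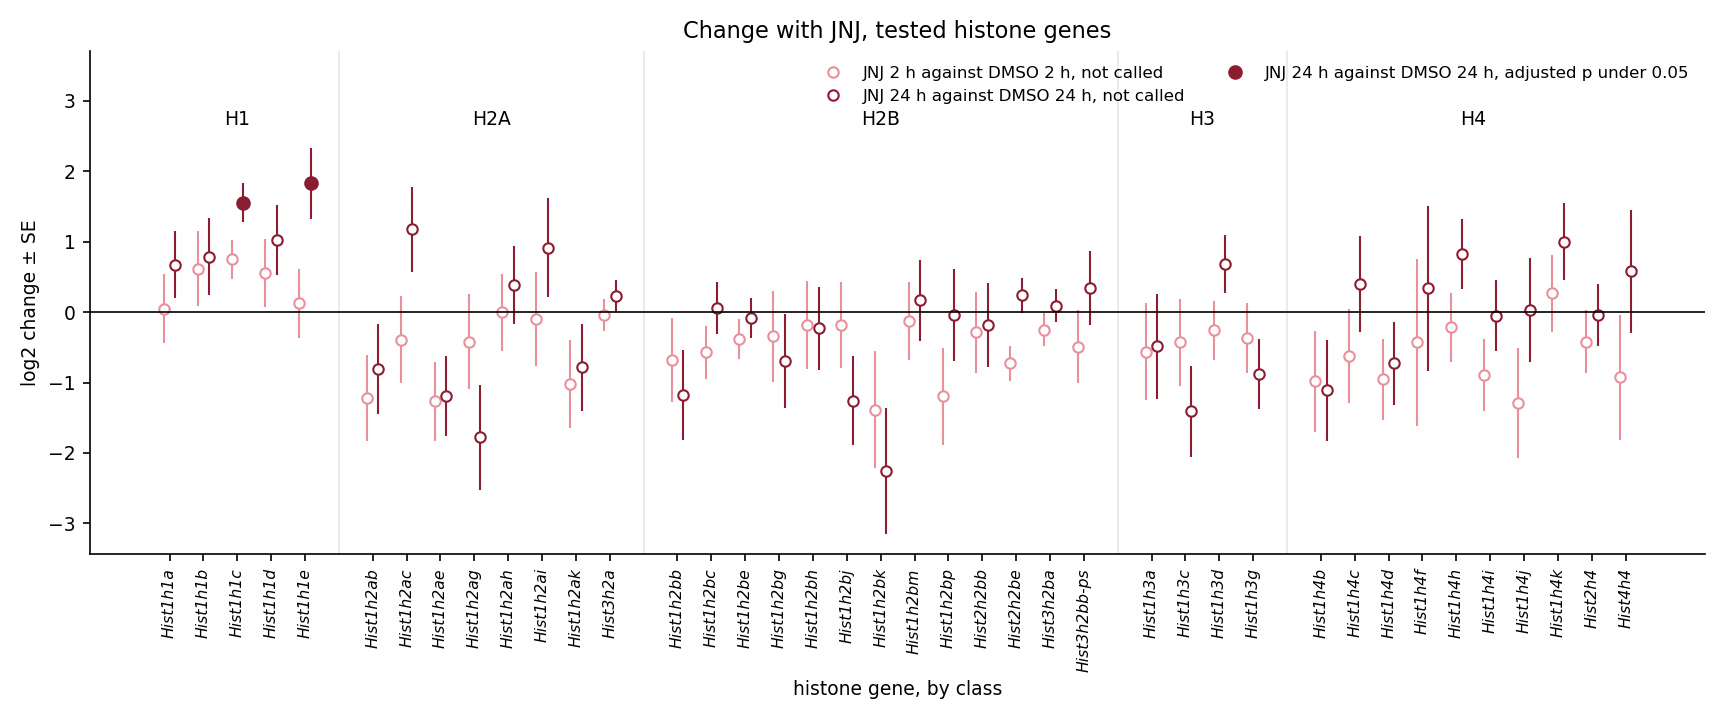
Log2 change with JNJ against DMSO (vertical axis, with SE bars from edgeR) of the 40 tested histone genes, grouped by class, at 2 h and 24 h in separate colours, 3 libraries per group. Filled points are called: only Hist1h1c and Hist1h1e at 24 h, while points of all core classes lie on both sides of 0 at 24 h and, except for 1 H4 gene, below 0 at 2 h.

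After 2 h with JNJ no histone gene was called. Of 40 tested, 0 were higher (background 9.11%) and 0 lower (background 4.59%) with edgeR. At an unadjusted p under 0.05, 1 was higher (Hist1h1c, background 17.9%) and 2 lower (Hist2h2be and the H2A gene Hist1h2ae, background 11.1%). DESeq2 called Hist1h1c higher (background 12.2%) and Hist2h2be lower (background 7.47%). The median log2 change of the 40 was -0.40 against 0.03 over all genes tested, with 34 below 0, 6 above 0 and a median SE of 0.57. All 5 tested H1 genes were above 0 and 34 of 35 core histone genes below 0, while 52.1% of all genes tested lay above 0. Without drug, DMSO 24 h against DMSO 2 h had 31 of 40 histone genes below 0 (median -0.27), among them 27 of 35 core histone genes. Both comparisons use the same DMSO 2 h libraries, whose part in these signs was not tested.

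Hist2h2be had 86.7, 85.1 and 50.2 CPM with DMSO and 39.8, 53.1 and 41.2 with JNJ at 2 h. DMSO replicate 3 lay inside the JNJ range and the other DMSO libraries above it. Its mean level was 1.66-fold lower in the fit (log2 -0.73, SE 0.25, adjusted p = 0.0761), which was not called, and without DMSO 2 h replicate 3 it was called (log2 -0.97, adjusted p = 0.0228). Hist1h1c had 5.50, 8.56 and 7.43 CPM with DMSO and 10.0, 13.3 and 12.9 with JNJ (log2 0.75, SE 0.27, adjusted p = 0.0895). All 3 JNJ libraries lay above the DMSO libraries.

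The remaining genes with most reads were not called at 2 h, and only Hist1h2be of them had groups that did not overlap. Hist3h2ba had 21.3, 28.0 and 29.3 CPM with DMSO and 15.0, 21.5 and 29.6 with JNJ (log2 -0.25, SE 0.23, adjusted p = 0.515). Hist1h2bc had 17.2, 20.1 and 39.3 CPM with DMSO and 12.8, 14.4 and 24.2 with JNJ (log2 -0.57, SE 0.37, adjusted p = 0.330). Hist3h2a had 13.2, 15.5 and 17.3 CPM with DMSO and 12.8, 13.0 and 19.0 with JNJ (log2 -0.04, SE 0.23, adjusted p = 0.940). In these 3 genes replicate 3 was the highest library of both groups.

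Hist1h4i had 9.17, 5.84 and 3.68 CPM with DMSO and 2.04, 5.23 and 2.80 with JNJ (log2 -0.90, SE 0.51, adjusted p = 0.264). Hist1h2be had 3.62, 3.02 and 2.42 CPM with DMSO and 2.27, 2.38 and 2.31 with JNJ (log2 -0.38, SE 0.29, adjusted p = 0.414), all JNJ libraries below all DMSO libraries. Hist1h3c had 1.65, 1.66 and 0.892 CPM with DMSO and 0.532, 2.12 and 0.491 with JNJ (log2 -0.43, SE 0.62, adjusted p = 0.685). JNJ replicate 2 was the highest of the 6 libraries for Hist1h3c and the other JNJ libraries were the lowest. Hist1h1e had 0.342, 0.897 and 0.432 CPM with DMSO and 0.616, 0.695 and 0.519 with JNJ (log2 0.13, SE 0.49, adjusted p = 0.893), with overlap. Without overlap between the groups, 1 histone gene was higher (Hist1h1c, background 13.9%) and 2 lower (Hist1h2be and the H2A gene Hist1h2ab, background 11.7%).

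The effect of JNJ at 24 h was then compared with that at 2 h as an interaction term. No histone gene was called of 40 (background 2.51% higher at 24 h and 1.73% lower), so a call at 24 h and none at 2 h does not show that the times differ. At an unadjusted p under 0.05, 2 were higher (Hist2h2be and Hist1h1e, background 10.9%) and 0 lower (background 11.0%), and DESeq2 called 0 (background 5.93% higher, 4.42% lower). For Hist1h1c the 24 h effect exceeded the 2 h effect by log2 0.81 (adjusted p = 0.246), for Hist1h1e by 1.71 (adjusted p = 0.177) and for Hist2h2be by 0.97 (adjusted p = 0.134). Between the DMSO groups at 24 h and 2 h, 0 histone genes were called (background 0% in each direction), with Hist1h2be higher (background 5.08%) and the H4 gene Hist1h4h lower (background 4.71%) at an unadjusted p under 0.05 and 0 called by DESeq2 (background 0.0262% higher, 0.0786% lower). Without overlap, 1 was higher (Hist1h2be, background 8.94%) and 5 lower (Hist1h1d, Hist1h1e, Hist1h2ai, Hist1h3a and Hist1h4h, background 8.25%). Hist1h1e, one of the 2 genes called at 24 h, was 0.557 ± 0.298 CPM (mean ± SD, n = 3) in DMSO 2 h and 0.283 ± 0.0716 CPM in DMSO 24 h (log2 -0.97, SE 0.51, adjusted p = 0.519).

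**Figure D3:**
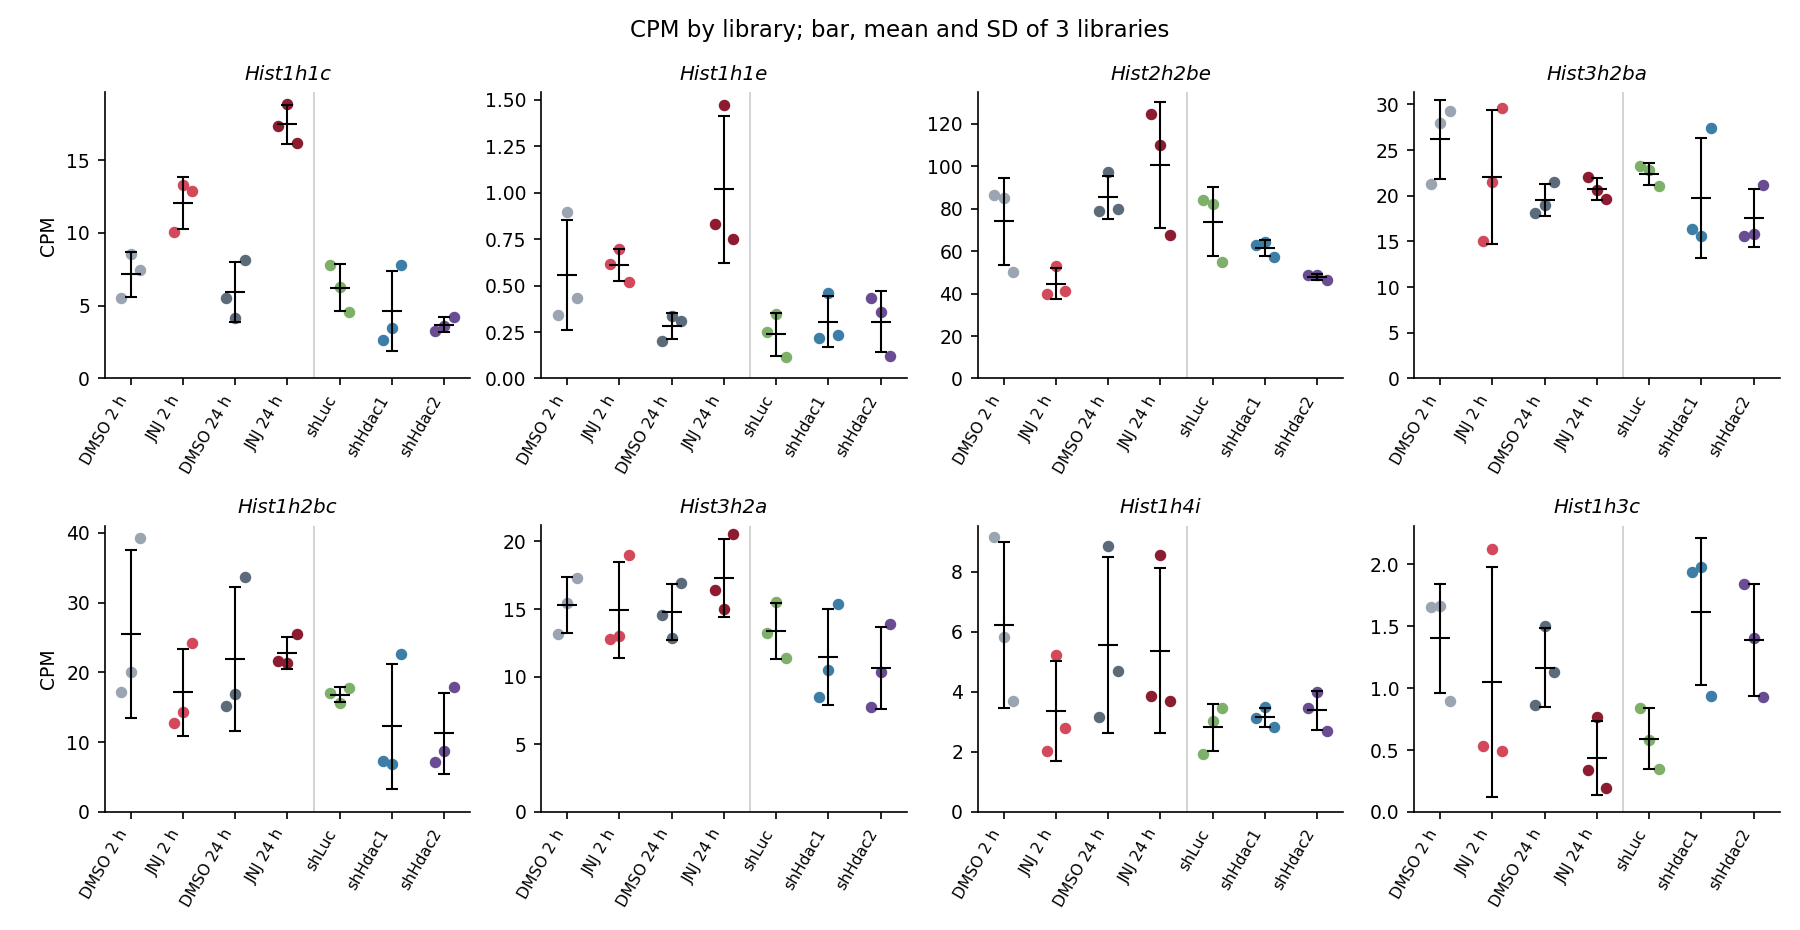
CPM of 8 histone genes in each of the 21 libraries (points), with the mean and SD of the 3 libraries of each group (black), the JNJ experiment left of the line and the hairpin experiment right of it, each scaled apart. Hist1h1c lies at 16.2 to 18.8 CPM in JNJ 24 h, above every other library of the JNJ experiment, and Hist2h2be lies at 46.2 to 48.9 CPM in shHdac2, below every other hairpin library.

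The hairpins lowered their targets. Hdac1, which encodes a class I histone deacetylase, had 88.8, 94.8 and 101 CPM in shLuc and 32.6, 28.6 and 30.5 CPM in shHdac1 (log2 -1.63, adjusted p = 0.000165). Hdac2, its close paralogue, had 309, 301 and 344 CPM in shLuc and 49.1, 48.1 and 53.8 CPM in shHdac2 (log2 -2.66, adjusted p = 3.49e-06). Each target was lower in all 3 libraries than in any shLuc library.

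With neither hairpin was a histone gene called by edgeR. Of 13612 genes tested 22 were histone genes. For shHdac1 against shLuc, 0 of 22 were called higher (background 0.154%) and 0 lower (background 0.595%), and for shHdac2 against shLuc 0 were higher (background 0.654%) and 0 lower (background 1.03%). DESeq2 called 0 with shHdac1 (background 1.24% higher, 2.82% lower). With shHdac2 it called 0 higher (background 2.82%) and 1 lower, Hist2h2be (background 3.26%). Between shHdac1 and shHdac2, 0 of 22 were called by edgeR (background 0.889% higher, 1.17% lower) and 0 by DESeq2 (background 2.57% higher, 3.67% lower), with 1, Hist2h2be, higher in shHdac1 at an unadjusted p under 0.05 (background 6.50% higher, 7.81% lower).

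Several core histone genes with few reads had higher values in the hairpin groups, without a call. At an unadjusted p under 0.05, 5 of 22 were higher with shHdac1 (22.7%, background 5.00%) and 0 lower (background 7.39%). With shHdac2, 5 were higher (22.7%, background 7.68%) and 2 lower (Hist2h2be and Hist1h2be, background 8.18%). Log2 changes with shHdac1 and shHdac2 were 1.55 and 1.59 for Hist1h2ae (H2A), 1.67 and 1.37 for Hist1h2bk (H2B), 1.45 and 1.24 for Hist1h3c (H3), 1.94 and 1.64 for Hist1h4b and 1.23 and 1.24 for Hist1h4d (both H4). Both comparisons use the same shLuc libraries, so their values are not independent of each other. Genes with few reads in shLuc could pass the filter on low counts through a hairpin group alone, which favours higher values among them. The background holds mostly better-measured genes (median SE with shHdac1 0.16, against 0.47 for the 22), so the shares are not like for like. The median log2 change of the 22 genes was 0.41 with shHdac1 and 0.26 with shHdac2, against 0.00 and -0.01 over all genes tested.

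Hist1h3c had 0.842, 0.579 and 0.350 CPM in shLuc, 1.94, 1.98 and 0.937 in shHdac1 and 1.84, 1.40 and 0.930 in shHdac2. Both hairpin groups lay wholly above shLuc. Its log2 change was 1.45, SE 0.45 with shHdac1 (adjusted p = 0.213) and 1.24, SE 0.45 with shHdac2 (adjusted p = 0.225). Hist1h4b had 0.379, 0.270 and 0.389 CPM in shLuc, 1.35, 2.19 and 0.502 in shHdac1 and 1.34, 1.33 and 0.566 in shHdac2, again with no overlap with shLuc. In reads these levels were low, 9, 7 and 10 in shLuc, 43, 52 and 15 in shHdac1 and 43, 37 and 14 in shHdac2.

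With the replicate number as a block 2 histone genes were called with shHdac1 in place of 0, Hist1h3c (adjusted p = 0.0289) and Hist1h2bk (0.0400), both higher (background 1.12% higher, 2.72% lower). For shHdac2 the block called 2, Hist1h3c higher (0.0391) and Hist2h2be lower (0.0283), against a background of 2.81% and 3.08%. Without overlap between the groups, 5 histone genes were higher with shHdac1 (background 8.42%) and 0 lower (background 8.29%). With shHdac2, 7 were higher (background 10.7%) and 3 lower (Hist1h1c, Hist1h2be and Hist2h2be, background 10.6%). The limit of the filter given above holds for these counts too.

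Of the 7 genes with most reads, 6 had log2 changes below 0 with both hairpins, and none was called. Hist2h2be had 84.1, 82.3 and 55.0 CPM in shLuc, 62.9, 64.5 and 57.2 in shHdac1 and 48.9, 48.6 and 46.2 in shHdac2. All shHdac2 libraries lay below shLuc, while shLuc replicate 3 lay below all shHdac1 libraries and the other shLuc libraries above them. The log2 change was -0.26, SE 0.15 with shHdac1 (adjusted p = 0.553) and -0.62, SE 0.15 with shHdac2 (adjusted p = 0.0871). Without shLuc replicate 3, edgeR called Hist2h2be lower with shHdac1 (log2 -0.43, adjusted p = 0.0136) and with shHdac2 (log2 -0.79, adjusted p = 0.00267).

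Hist3h2ba had 23.3, 22.8 and 21.0 CPM in shLuc, 16.3, 15.6 and 27.4 in shHdac1 and 15.6, 15.8 and 21.2 in shHdac2. Hist1h2bc had 17.0, 15.7 and 17.8 CPM in shLuc, 7.32, 6.89 and 22.6 in shHdac1 and 7.09, 8.78 and 17.9 in shHdac2. Hist3h2a had 13.2, 15.6 and 11.4 CPM in shLuc, 8.48, 10.5 and 15.4 in shHdac1 and 7.78, 10.3 and 13.9 in shHdac2. In these 3 genes replicate 3 was the highest library of both hairpin groups, and their log2 changes of -0.18, -0.45 and -0.23 with shHdac1 and -0.35, -0.58 and -0.33 with shHdac2 were not called.

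Hist1h1c, called higher with JNJ at 24 h, had 7.83, 6.25 and 4.60 CPM in shLuc, 2.66, 3.45 and 7.76 in shHdac1 and 3.24, 3.63 and 4.24 in shHdac2. All shHdac2 libraries lay below shLuc, with log2 -0.75, SE 0.39 (adjusted p = 0.396), and with shHdac1 it was -0.43, SE 0.39 (adjusted p = 0.759). Hist1h1e did not pass the filter on low counts in the hairpin libraries, where it had 6, 9 and 3 reads in shLuc, 7, 11 and 7 in shHdac1 and 14, 10 and 3 in shHdac2. The 3 groups overlapped in CPM.

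Hist1h4i had 1.94, 3.05 and 3.47 CPM in shLuc, 3.13, 3.49 and 2.84 in shHdac1 and 3.45, 3.99 and 2.71 in shHdac2. Hist1h2be had 3.24, 3.63 and 2.61 CPM in shLuc, 1.88, 2.23 and 2.78 in shHdac1 and 1.52, 2.34 and 2.26 in shHdac2. Hist1h4i overlapped between all groups, and Hist1h2be was lower in all shHdac2 libraries than in shLuc (log2 -0.63, SE 0.27, adjusted p = 0.307).

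**Figure D4:**
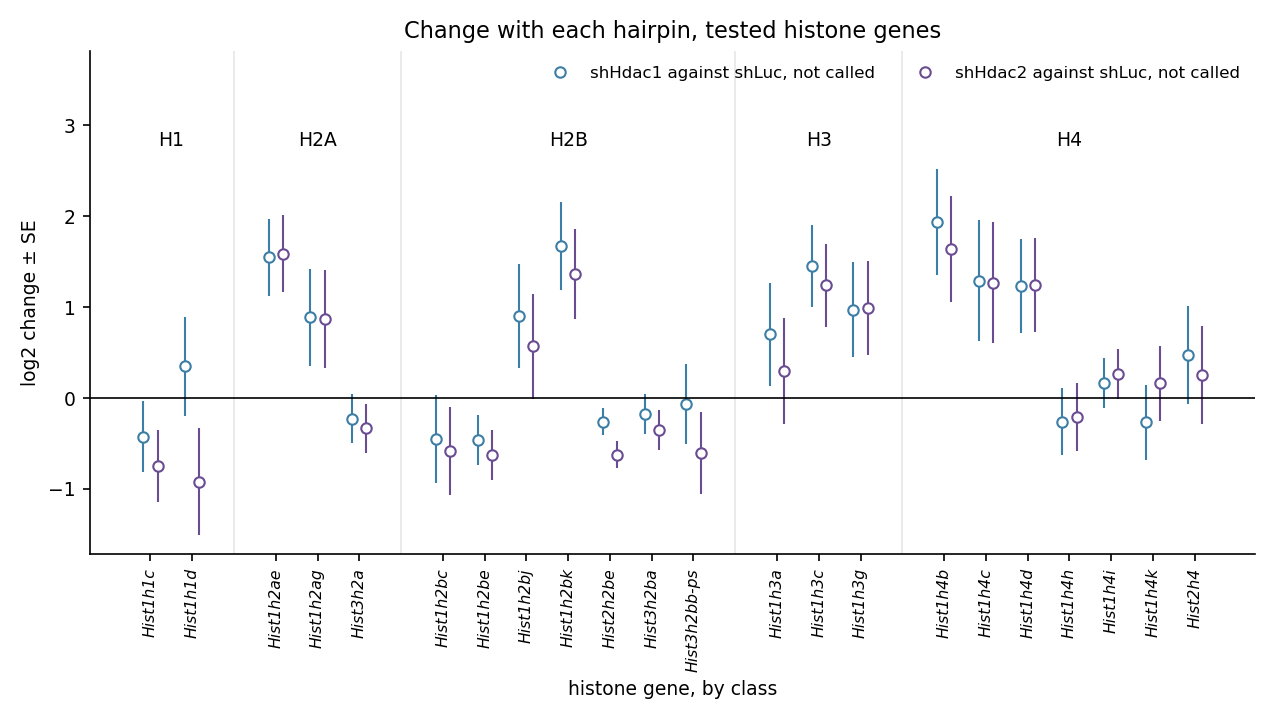
Log2 change against shLuc (vertical axis, with SE bars from edgeR) of the 22 tested histone genes, grouped by class, with each hairpin in its own colour, 3 libraries per group. None is called. Hist1h2ae, Hist1h2bk, Hist1h3c, Hist1h4b and Hist1h4d lie above 1.2 with both hairpins, and Hist2h2be, Hist3h2ba, Hist1h2bc and Hist1h2be, the H2B genes with most reads, lie below 0 with both.

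The summed level of the genes ending at the stem-loop also differed between replicates of a group, as did several rows of noncoding RNA. Summed over the 23 genes ending at the stem-loop, CPM were 10.0, 10.8 and 5.44 in DMSO 2 h, 3.22, 9.98 and 4.47 in JNJ 2 h, 5.50, 8.98 and 6.74 in DMSO 24 h and 3.55, 6.92 and 2.68 in JNJ 24 h. They were 4.38, 4.48 and 3.50 in shLuc, 9.67, 9.21 and 4.22 in shHdac1 and 8.37, 8.06 and 4.77 in shHdac2. Replicate 3 was lowest in DMSO 2 h, JNJ 24 h and all 3 hairpin groups, and the JNJ groups overlapped their DMSO groups. The shHdac1 range overlapped shLuc and the shHdac2 range lay above it. Within libraries of the same replicate number, the sum was lower with JNJ at 24 h in 3 of 3 pairs, higher with shHdac1 in 3 of 3 and higher with shHdac2 in 3 of 3. With 3 pairs an exact two-sided permutation test cannot give a p below 0.25.

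The 105 rows named Snora or Snord, small nucleolar RNAs, had 77.9, 73.8 and 39.0 summed CPM in shLuc, 69.6, 70.2 and 38.3 in shHdac1 and 60.9, 57.3 and 34.7 in shHdac2. In the drug groups they had 53.5, 59.6 and 50.2 in DMSO 2 h, 99.0, 59.3 and 35.5 in JNJ 2 h, 72.7, 70.4 and 46.7 in DMSO 24 h and 51.8, 40.2 and 26.1 in JNJ 24 h. In 5 of the 7 groups the library lowest for these rows was also the lowest for the stem-loop-ended histone genes. The same held in 2 of 7 groups for Rmrp and Rpph1, the RNA subunits of the RNases MRP and P, and in 2 of 7 for Rn45s, the ribosomal RNA precursor. For genes running past the stem-loop it held in 2 of 7 groups with Snora and Snord, 4 with Rmrp and Rpph1 and 4 with Rn45s. The Snora and Snord rows were lowest in replicate 3 of every group. With 3 libraries a group, some matches arise with no link, and none was tested. Rmrp and Rpph1 had 0.884, 0.849 and 0.584 summed CPM in shLuc, 1.38, 2.82 and 3.88 in shHdac1 and 3.48, 3.24 and 3.27 in shHdac2. Both hairpin groups lay above shLuc. Rn45s had 789, 660 and 603 in shLuc, 746, 1246 and 1652 in shHdac1 and 1167, 1147 and 1614 in shHdac2. There shHdac2 lay above shLuc and shHdac1 overlapped it. For both sets of rows, JNJ overlapped DMSO at each time. Rows named Mir, microRNA genes, had 90.9, 70.6 and 70.5 in shLuc, 124, 615 and 722 in shHdac1 and 648, 589 and 737 in shHdac2. Both hairpin groups lay above shLuc for these rows too. At 24 h the Mir rows had 138, 95.0 and 67.1 with DMSO and 144, 62.4 and 56.3 with JNJ, with overlap, and at 2 h 368, 787 and 623 with DMSO and 719, 761 and 695 with JNJ. The part of such differences between libraries in the histone values was not tested.

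**Figure D5:**
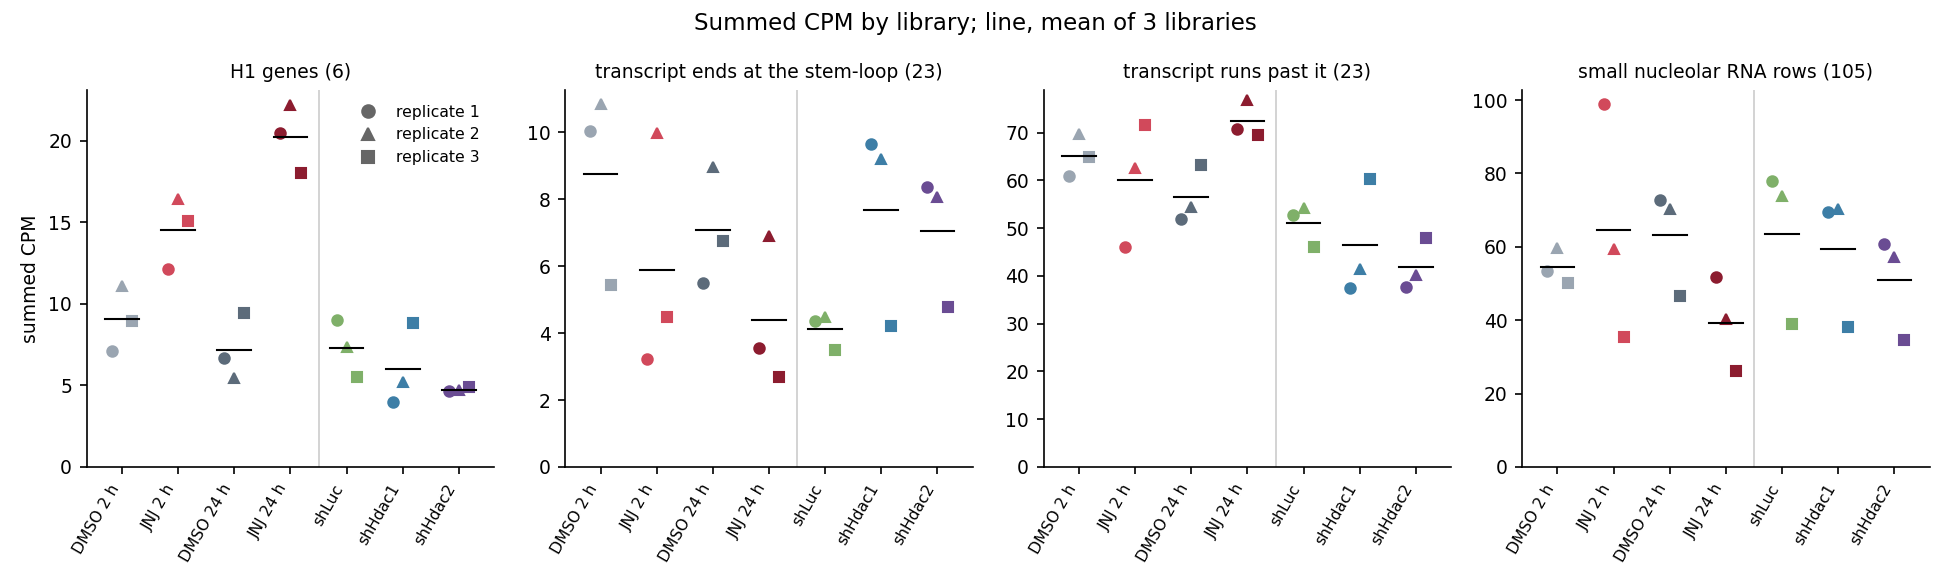
Summed CPM in each library (points, shaped by replicate number) with the group mean (line) of the H1 genes, the histone genes whose transcripts end at the stem-loop, those that run past it, and rows of small nucleolar RNA. The H1 sum is 18.0 to 22.2 in JNJ 24 h and at most 9.45 in DMSO 24 h. Among the genes ending at the stem-loop and the small nucleolar RNA rows, replicate 3 is the lowest library of shLuc, shHdac1, shHdac2, DMSO 2 h and JNJ 24 h.

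Markers of the granule lineage, from which this tumour arises, were present in every library. The granule lineage markers Atoh1, Gli1, Ptch1, Zic1, Zic2, Barhl1 and Mycn had median CPM of 37.9 to 579 over the libraries. Their sum was 1575, 1480.5 and 1484 in DMSO 24 h and 991, 834 and 1009 in JNJ 24 h. Of the 7, 3 were called lower there (background 15.1%), Atoh1, Gli1 and Barhl1 (log2 -1.08, -0.79 and -1.62), and 4 were not called. At 2 h the sum was 1454, 1481 and 1521 with DMSO and 829, 752 and 1190 with JNJ, with 2 of 7 called lower (background 4.59%) and 5 not called. Of 12 markers of other cells, Aif1 (microglia) and Mog (oligodendrocytes) had a median of 0, and Gfap (astrocytes) had the highest median, 8.88 CPM. Their sum was 30.7, 30.3 and 40.0 in shLuc, 15.7, 15.0 and 72.9 in shHdac1 and 19.6, 20.8 and 52.3 in shHdac2, so that replicate 3 of both hairpin groups, highest for Hist3h2ba, Hist1h2bc and Hist3h2a, was also highest for these markers. It was 11.9, 23.9 and 14.2 in DMSO 24 h and 33.2, 33.7 and 14.9 in JNJ 24 h. At 24 h with JNJ, 7 of the 12 were tested, Col1a1 (fibroblasts) rose (log2 4.32, adjusted p = 0.00103) and Gfap fell (log2 -0.95, adjusted p = 0.0466). The sum thus mixes genes that moved in opposite directions with JNJ, and it does not show the cell mix of a single library. The part of other cells in the histone values was not tested.

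Genes of DNA replication and of histone supply fell in number after 24 h with JNJ, where 0 of the 40 histone genes was called lower, or 3 with the replicate block (background 21.6%). The lists below share a few genes. Of 26 genes of S phase entry and replication all 26 fell after 24 h with JNJ (background 15.1%), with a median log2 change of -1.52. One of the 26, Ccne1, lost its call without 3 of 6 libraries in turn (log2 -0.62, highest adjusted p = 0.0880). Ccne2, which encodes cyclin E2, a driver of S phase entry, fell by log2 2.84 (adjusted p = 2.69e-05), and Mcm3, a subunit of the replicative helicase, by 1.99 (adjusted p = 5.16e-05). Of 16 histone chaperone and nucleosome assembly genes 12 fell and 0 rose (median -1.0), among them Chaf1a, a subunit of the replication-coupled assembly factor CAF-1 (log2 -1.25, adjusted p = 0.000288), and Mcm2, which is on both lists (log2 -1.36, adjusted p = 0.000208). These 4 calls were made without any 1 library.

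Slbp, whose protein binds the stem-loop, had 112, 95.9 and 100.2 CPM with DMSO and 47.3, 53.1 and 33.6 with JNJ at 24 h. Every JNJ library was lower, a 2.30-fold fall (log2 -1.20, SE 0.22, adjusted p = 0.00135). At 2 h Slbp was not called (log2 -0.16, SE 0.21, adjusted p = 0.649). Npat, the cyclin E target that switches on histone transcription, rose at 2 h (log2 0.57, SE 0.13, adjusted p = 0.0130) and fell at 24 h (log2 -0.50, SE 0.13, adjusted p = 0.0104). Casp8ap2, a protein of the histone locus body, fell at 24 h (log2 -0.82, SE 0.16, adjusted p = 0.00203) and was not called at 2 h (log2 0.05, adjusted p = 0.862). Of the 20 genes of histone transcription and 3′ processing 0 rose (background 18.1%) and 8 fell (background 15.1%) at 24 h, with a median of -0.43. At 2 h 3 of them rose (background 9.11%) and 1 fell (background 4.59%). The 2 h call of Npat was lost without DMSO 2 h replicate 1 or 2 (highest adjusted p = 0.0567).

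The 2 h rises in that list were Npat, Lsm11, a subunit of the U7 particle that cleaves histone pre-mRNA (log2 0.71, SE 0.16, adjusted p = 0.0135), and Hinfp, a transcription factor of H4 genes (log2 0.88, SE 0.17, adjusted p = 0.00526). The fall was Cpsf2, which encodes a subunit shared by the stem-loop and the poly(A) cleavage complexes (log2 -0.76, SE 0.19, adjusted p = 0.0196). Of 17 genes of the general poly(A) machinery 1 fell at 2 h, again Cpsf2 (background 4.59%), and 8 fell at 24 h (background 15.1%, median -0.53). Among the 8 were Cpsf7 (log2 -1.06, adjusted p = 0.00138) and Fip1l1 (log2 -0.86, adjusted p = 0.00138). Of 8 genes of histone mRNA decay 1 fell at 2 h (background 4.59%), the exosome subunit gene Exosc10 (log2 -0.64, SE 0.14, adjusted p = 0.0103). At 24 h 2 of the 8 fell (background 15.1%), Exosc10 (log2 -1.15, adjusted p = 0.000145) and Lsm4 (log2 -1.05, adjusted p = 0.0250). None of the 5 lists had a called rise at 24 h. The call of Cpsf2 at 2 h was lost without 3 of 6 libraries in turn (highest adjusted p = 0.0702), and that of Lsm4 at 24 h without 4 of 6 (highest adjusted p = 0.109).

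At 2 h the S phase list had 1 rise, Ccne1 (log2 0.69, SE 0.18, adjusted p = 0.0248), and 1 fall, Ccne2 (log2 -0.93, SE 0.23, adjusted p = 0.0191), both cyclin E genes. The chaperone list had 1 rise, Asf1b, a histone H3-H4 chaperone (log2 1.06, SE 0.19, adjusted p = 0.00316), and 1 fall, Nap1l4 (log2 -0.53, SE 0.16, adjusted p = 0.0483). These 2 lists hold 26 and 16 genes, and the background at 2 h was 9.11% higher and 4.59% lower. With the hairpins the lists had 1 call in all against shLuc, a fall of Npat with shHdac2 (log2 -0.35, SE 0.07, adjusted p = 0.0422, background 1.03%). With the replicate block they also had Hjurp higher with both hairpins and, with shHdac2, Mcm7 lower and Pabpc1 higher. The block's background was 1.12% higher with shHdac1, and 2.81% higher and 3.08% lower with shHdac2. Hdac1 and Hdac2 themselves were not called at 24 h with JNJ (adjusted p = 0.0608 and 0.168), though with the replicate block Hdac1 was called higher there (log2 0.44, adjusted p = 0.0140). Hdac2 fell at 2 h (log2 -0.55, SE 0.16, adjusted p = 0.0376). Leaving out libraries in turn ended the 2 h calls of Ccne1 (2 of 6, highest adjusted p = 0.128), Ccne2 (3 of 6, 0.0633), Nap1l4 (4 of 6, 0.149) and Hdac2 (5 of 6, 0.116), and the call of Npat with shHdac2 (5 of 6, 0.216), while Asf1b was called in all 6.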

How the data were processed

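RNA of the 21 libraries was prepared with a stranded kit that selects poly(A) RNA, 500 ng each, and read as single 75-base reads, per the labels' protocols. The deposited table holds raw counts per gene made by the authors, with STAR 2.5.1b and build mm9 per the submitters' processing notes. Not given in the sources used here are the counting tool, its annotation, its strand setting and how it treated reads that map to several places. Depth was 23094799 to 39341784 counts per library. The floor of 3 counts covers counting error only.

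From these counts, edgeR 4.0.16 (R 4.3.3) was run with TMM scaling, filterByExpr at its minimum count of 10, and a quasi-likelihood fit on group. The 12 JNJ and DMSO libraries were fitted together and the 9 hairpin libraries together, so CPM of both experiments are scaled apart. Each fit's p-values received a Benjamini-Hochberg adjustment over the whole table, and adjusted p under 0.05 was called. The SE is the log2 change divided by the square root of the F statistic. The fitting code was run on simulated data in which only genes with more reads than most histone genes here were changed. It therefore does not show how the fits perform at few reads. Alternatives were RLE, upper-quartile and total-count scaling, no filter, DESeq2 1.42.0 (20 to 54 histone genes tested by its own filter), only the groups compared, a replicate block, and each library left out.

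Replicate numbers in the labels were checked as pairs by correlating deviations from group means over genes. Same-numbered libraries deviated together in DMSO 24 h and JNJ 24 h (r = 0.566 to 0.656) and in all pairs of hairpin groups (r = 0.245 to 0.798), each above the limit of 0.1, so the block is given beside those results. Differently numbered libraries reached r = -0.178 at 24 h but 0.322 to 0.581 in the hairpin groups, so there the number is less specific. In DMSO 2 h and JNJ 2 h replicates 2 and 3 deviated together (r = 0.651 and 0.585) and replicate 1 did not (r = -0.00469), so the 2 h numbers were not taken as pairs. Between DMSO 2 h and DMSO 24 h, r was -0.219 for replicate 1, 0.520 for replicate 2 and 0.575 for replicate 3. The drug block had 1 effect per replicate number over all 12 libraries, so its 24 h calls rest on the 2 h numbers too.

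Transcripts and positions came from GENCODE M21 and promoters from RefSeq, both GRCm38, with 68 and 61 of the 68 genes matched. The members, gene lists and tests were chosen with earlier results of these data known. Values are given in every library for the 8 histone genes with the highest mean CPM, the testis members and called members. From the gene lists, Slbp, Npat, Casp8ap2 and the 2 called genes with the lowest p per direction are given. Genes that spell out a count of 5 or fewer, and markers, were named after their values were seen.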

Additional observations from a re-analysis of the deposited data

Results flagged for a closer look

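No histone gene was among the results that met a rule for a closer look. Of the genes named in the report, 9 that make or use histones or drive S phase had a JNJ effect at 24 h lower than that at 2 h by an interaction term (edgeR's quasi-likelihood test, Benjamini-Hochberg adjusted over 14467 genes). Over the whole lists, 16 of 26 S phase genes, 5 of 16 chaperone genes, 3 of 20 genes of transcription and 3′ processing and none of the decay and poly(A) lists were called lower by it (background 1.73%). The difference of the log2 changes, 24 h minus 2 h, was -1.91 for Ccne2 (adjusted p = 0.0120), -1.56 for Mcm3 (0.0117) and -1.07 for Npat (0.0117), and these 3 were called without any 1 of the 12 libraries. It was -1.31 for Ccne1 (adjusted p = 0.0184), -1.19 for Hinfp (0.0197) and -1.19 for Asf1b (0.0265), whose calls were lost without 4, 3 and 6 of the 12 libraries in turn. For Chaf1a it was -1.0 (adjusted p = 0.0378), for Mcm2 -1.0 (0.0406) and for Casp8ap2 -0.87 (0.0476), whose calls were lost without 9, 10 and 10 of the 12. Npat, Hinfp, Asf1b and Ccne1 rose at 2 h, and of these Npat and Ccne1 fell at 24 h, Ccne1 with a call lost without 3 of 6 libraries in turn (highest adjusted p = 0.0880). With 3 libraries a group, no library was tested for standing apart within its group.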

How the results depend on the processing

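No called value followed here changed direction under any alternative run. Of the histone genes, only the 8 with the highest mean CPM and Hist1h1e were followed, so most histone genes with few reads are not covered. Of histone values not called, 31 of 402 with a library left out (18 of 58 results) and 5 of 397 under the other alternatives lay on the other side of 0, and none was called there. Among the other genes named, 63 of 588 and 17 of 614 did, 1 with a call (Cpsf2 with shHdac1, log2 0.23 without shLuc replicate 3, adjusted p = 0.0407). The main counts of histone genes called (edgeR unless named) were 0 at 2 h, 2 at 24 h and 0 for the difference between the times. They were 0 between the DMSO groups and 0 in the 3 hairpin comparisons. Apart from the runs with a library left out, the count of histone genes called moved in 8 cases. With the replicate block it was 2 at 2 h (Hist1h1c higher, background 14.5%, and Hist2h2be lower, background 9.35%), 5 at 24 h, 1 for the difference (Hist2h2be, higher at 24 h, background 7.89%), 2 with shHdac1 and 2 with shHdac2. The numbers were not taken as pairs at 2 h, so the 2 h value and that of the difference rest on a shared number only. The 24 h value comes from the same fit, where both times share 1 effect per replicate number. With DESeq2 it was 2 at 2 h and 1 with shHdac2, and with only the groups compared in the fit it was 1 between shHdac1 and shHdac2. Leaving out each library in turn gave counts of 0 to 1 at 2 h, 1 to 2 at 24 h, 0 to 0 for the difference and between the DMSO groups, 0 to 1 with shHdac1, 0 to 1 with shHdac2 and 0 to 0 between the hairpins. The cause of these moves was not tested. Over 60 values of the histone genes followed, 409 of 414 with a library left out and 400 of 411 under the other alternatives kept their side of the threshold. Over 126 values of the other genes named, 781 of 864 and 828 of 864 did, and 77 calls were lost with a library left out and 21 under the other alternatives. At 24 h and with the hairpins against shLuc, the block changed no call of a histone gene beyond those given in the report.

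Histone genes rested on few reads: 28 of the 68 did not pass the filter in the JNJ libraries and 46 in the hairpin libraries, and the median SE of a log2 change was 0.58 at 24 h for the histone genes against 0.26 for all genes. Small differences were not detectable at this depth. Poly(A) selection works against mRNA that ends at the stem-loop, near-identical copies share reads, and 3′ classes rest on the annotation.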
